A study of Homo sapiens with 2 samples.

Results

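The genes described here encode 10 enzymes that remove methyl groups from chromatin with the help of molecular oxygen: the histone demethylases KDM3A, KDM3B, KDM4A, KDM4B, KDM4C, KDM5B and KDM6B and the DNA demethylases TET1, TET2 and TET3. They were picked by name, with earlier results of these data known, and no measured value enters the rule. All 10 were found among 24991 genes with a symbol of their own, each in a single row, and 8 of the 10 reached an abundance of 1 FPKM (fragments per kilobase of transcript, scaled for the depth of the library) in at least 1 library, as did 11182 genes in all. RNA was sequenced from PLC/PRF/5, an established human hepatocellular carcinoma line, in 2 cultures that were both kept under hypoxia. 1 library came from cells labelled as overexpressing NFX1, a zinc-finger transcription factor, and 1 library from cells with an empty vector. The oxygen level, the time under hypoxia, the construct and whether the cells were a clone are not given in the sources used here, and no normoxic library was analysed here. With 1 library per group no test across cultures was possible. Every difference below compares these 2 libraries, and the spread between cultures is unknown.

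These enzymes belong to the 2-oxoglutarate dioxygenases. Each holds an iron atom, uses oxygen and 2-oxoglutarate to hydroxylate a methyl group, and releases succinate, so that both oxygen supply and the state of the citric acid cycle can limit them. The histone enzymes carry a JmjC domain and differ in the lysine they act on, while the TET proteins oxidise 5-methylcytosine in DNA. In many cell types several of these genes, KDM3A and KDM4B among them, are themselves induced by hypoxia-inducible factors, and in liver tumours KDM3A is known as a hypoxia-induced H3K9 demethylase.

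NFX1 itself had 56.0 FPKM in the NFX1 library, against 4.21 FPKM in the vector library, a ratio of 13.3. Fragment totals, estimated from the smallest steps between low values, were about 29.7 M in the NFX1 library and 26.0 M in the vector library. All 14 listed hepatoma markers reached 1 FPKM, among them SERPINA1 at 6807 and 5935 FPKM and KRT18 at 1783 and 1502 FPKM in the NFX1 and vector libraries. ALB, the defining hepatocyte product, was low, at 1.06 FPKM in the NFX1 library and 0.776 FPKM in the vector library. None of 7 fibroblast, 5 endothelial and 5 blood markers reached 1 FPKM in either library. Changes are given as log2 of (FPKM + 1), NFX1 over vector, which understates the change of low genes, or as plain FPKM ratios where stated. Fold limits of 1.1 and 1.2 apply to FPKM + 1, so a low gene can pass a limit as a plain ratio and not here.

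The KDM4 genes make the sequence feature visible along which the 10 genes differed. KDM4A, KDM4B and KDM4C encode closely related enzymes, and the stretch shown begins at the codon of the histidine that binds the catalytic iron, with the iron-binding glutamate in the third codon. Each run has 40 codons (120 bases, coding strand, GENCODE release 29, GRCh38), and capitals mark G or C at the third position of a codon.
KDM4B: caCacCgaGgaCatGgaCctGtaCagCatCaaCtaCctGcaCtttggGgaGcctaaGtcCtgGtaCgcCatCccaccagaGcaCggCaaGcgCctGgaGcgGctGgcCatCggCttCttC
KDM4A: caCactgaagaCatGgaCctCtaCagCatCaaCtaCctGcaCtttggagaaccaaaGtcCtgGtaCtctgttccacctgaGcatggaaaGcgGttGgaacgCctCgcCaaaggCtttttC
KDM4C: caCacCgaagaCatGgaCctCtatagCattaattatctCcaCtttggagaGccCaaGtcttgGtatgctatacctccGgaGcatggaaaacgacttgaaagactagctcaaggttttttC
The start codons of the 3 transcripts lie at position 5032891 of chromosome 19 for KDM4B, 43653176 of chromosome 1 for KDM4A and 6792989 of chromosome 9 for KDM4C, all on the plus strand of GRCh38. Of the 40 codons, 39 encode the same residue in KDM4B and KDM4C, yet 30 of the 120 bases differ, 27 of them at the third position of a codon. G or C stands at that position in 36 codons of KDM4B, 25 of KDM4A and 16 of KDM4C. Over the whole coding sequence the share of codons with G or C at the third position was 84.0% in KDM4B, 54.3% in KDM4A and 48.3% in KDM4C.

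Among the KDM4 genes, which demethylate H3K9 and H3K36, the NFX1 to vector ratios stood in that same order. KDM4B (chr19:4969124-5153615, hg19) had 17.5 FPKM in the NFX1 library, against 15.97 FPKM in the vector library, a ratio of 1.09. The exact 95% interval of that ratio was 1.02 to 1.18 with the median transcript length of the gene and 1.04 to 1.16 with the longest. These intervals come from estimated fragments and cover counting error only, not differences between cultures, and use the median length below unless the longest is named. KDM4A (chr1:44115797-44173012, hg19) had 16.05 FPKM in the NFX1 library and 16.98 FPKM in the vector library, a ratio of 0.945 with an interval of 0.821 to 1.09. KDM4C (chr9:6720863-7175648, hg19) had 1.760 and 2.097 FPKM in the NFX1 and vector libraries, a ratio of 0.839 with an interval of 0.595 to 1.16. Of the 3, KDM4B was thus the only one whose value was higher in the NFX1 library as deposited, and with both libraries scaled to the same total FPKM its change was -0.005. Their summed level was nearly equal, 35.3 FPKM in the NFX1 library and 35.0 FPKM in the vector library. KDM4B made up 49.5% of that sum in the NFX1 library and 45.6% in the vector library, and KDM4A 45.5% and 48.5%. The antisense gene KDM4A-AS1 is listed with the same coordinates as KDM4A, so these mark a locus of both genes and not KDM4A alone. KDM4A-AS1 had 0.444 FPKM in the NFX1 library and 0.340 FPKM in the vector library. Whether reads were counted by strand is not given in the sources used here, so reads of the pair cannot be told apart.

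Both KDM3 genes, which remove mono- and dimethylation from H3K9, had lower values in the NFX1 library. KDM3A (chr2:86668271-86719839, hg19), a textbook target of hypoxia-inducible factors, had 3.28 FPKM in the NFX1 library and 3.897 FPKM in the vector library. Its ratio of 0.842 had an interval of 0.617 to 1.16 with the median transcript length, which held 1, and of 0.765 to 0.926 with the longest, which did not. For KDM3B (chr5:137688285-137772716, hg19), the more abundant paralogue, the values were 12.5 FPKM in the NFX1 library and 14.1 FPKM in the vector library. That ratio of 0.886 had an interval of 0.736 to 1.06 with the median length and of 0.838 to 0.937 with the longest. KDM3B supplied 79.2% of the KDM3 sum in the NFX1 library and 78.3% in the vector library, so the balance of the pair was nearly the same.

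KDM5B (chr1:202696532-202777549, hg19) removes methyl groups from H3K4, a mark of active promoters. It had 6.65 FPKM in the NFX1 library, against 7.81 FPKM in the vector library, a ratio of 0.852 with intervals of 0.766 to 0.949 and 0.801 to 0.906 for the median and the longest transcript. Its change of -0.20 was the lowest of the 8 measured genes, and 10.8% of all 11182 genes had a lower one. KDM6B (chr17:7743235-7758213, hg19), which removes the repressive H3K27 mark, had 15.6 FPKM in the NFX1 library and 15.04 FPKM in the vector library. The ratio of 1.04 had an interval of 0.90 to 1.2, and its change of 0.05 as deposited turned to -0.07 with both libraries scaled to the same total FPKM.

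The TET genes were the least abundant. TET3 (chr2:74213531-74335302, hg19) had 1.66 FPKM in the NFX1 library and 1.63 FPKM in the vector library, a ratio of 1.02 with an interval of 0.809 to 1.28. TET2 (chr4:106067032-106274038, hg19) had 0.518 and 0.656 FPKM in the NFX1 and vector libraries, a ratio of 0.790 with intervals of 0.627 to 1.00 with the median and 0.633 to 0.987 with the longest transcript. The lowest of the 10 was TET1 (chr10:70320117-70454239, hg19), with 0.296 FPKM in the NFX1 library and 0.405 FPKM in the vector library, from an estimated 82 and 98 fragments. Its ratio of 0.732 was the farthest from 1 of all 10 and its interval of 0.540 to 0.994 ended just below 1. TET3 gave 67.0% of the summed TET level in the NFX1 library and 60.5% in the vector library, with TET2 at 21.0% and 24.4% and TET1 at 11.99% and 15.1%. TET1 and TET2 stayed under 1 FPKM in both libraries and enter no count of measured genes below. TET2-AS1, an antisense gene, was listed at 0 in both libraries. It has the same coordinates as TET2 here, so these mark a locus of both genes and not TET2 alone.

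**Figure D1:**
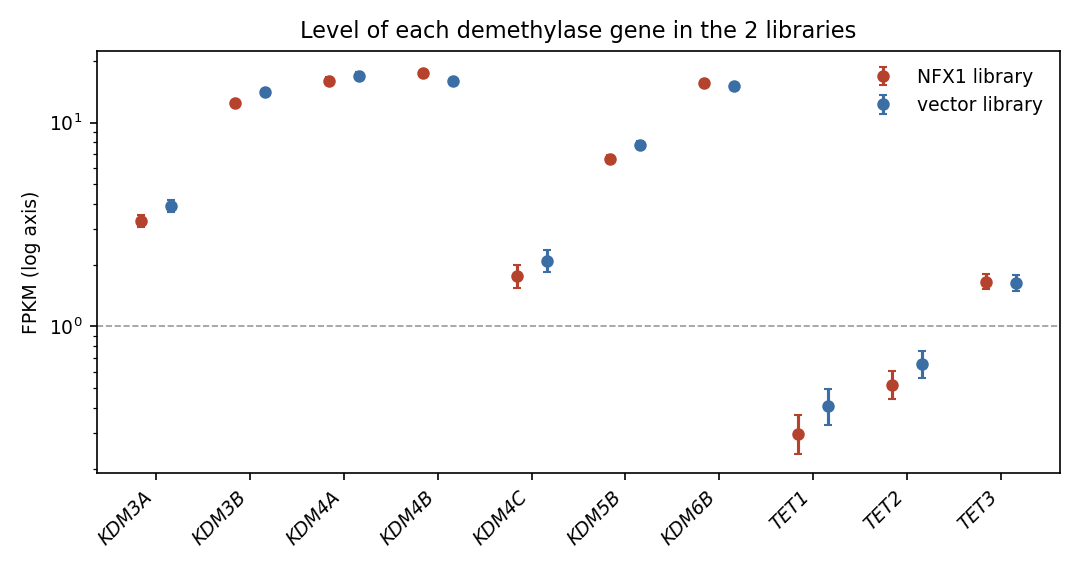
FPKM (log axis) of the 10 genes in the NFX1 library (left point of each pair) and the vector library (right point), with exact 95% Poisson intervals from fragments estimated with the longest transcript; the dashed line is 1 FPKM. KDM4B, KDM4A, KDM6B and KDM3B lie between 12.5 and 17.5 FPKM in both libraries, and TET1 and TET2 lie under 1 FPKM.

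Since FPKM is scaled for length, the levels can be ordered within a library. The order in the NFX1 library was KDM4B, KDM4A, KDM6B, KDM3B, KDM5B, KDM3A, KDM4C, TET3, TET2 and TET1. In the vector library it was the same apart from the leading pair, where KDM4A stood above KDM4B. The KDM4A level was 1.03 times that of KDM6B in the NFX1 library, with an interval of 0.971 to 1.08, so that pair did not differ beyond counting error. Nor did KDM4C and TET3 there, at a ratio of 1.06 with an interval of 0.909 to 1.24. In the vector library KDM4A was 1.06 times KDM4B, with an interval of 1.002 to 1.13 that only just lay above 1. KDM3B was 1.88 times KDM5B in the NFX1 library and 1.80 times in the vector library, and KDM5B was 2.03 times KDM3A in the NFX1 library and 2.0 times in the vector library. These intervals use the longest transcript of each gene, which gives the most estimated fragments and the narrowest intervals. In the vector library KDM4A and KDM4B rest on 1977 and 2369 such fragments, but on 376 and 1266 with median lengths. No interval of the order was computed with median lengths, so the swap of KDM4A and KDM4B is not shown to exceed counting error there. The order was not adjusted for base composition. Against all measured genes, KDM4B had a mean level above 61.4% of them and TET3 above 8.88%.

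Counted by size, the differences were small. As FPKM + 1, no measured demethylase gene was 1.2-fold higher or 1.2-fold lower in the NFX1 library, where 11.5% of all genes were 1.2-fold higher and 4.95% were 1.2-fold lower. At a limit of 1.1-fold, 4 of the 8 (KDM3A, KDM3B, KDM4C and KDM5B) were lower, where 20.7% of all genes were, and 0 of the 8 were higher, where 29.4% of all genes were. The median change over the 8 was -0.12, against 0.01 over all 11182 genes, with 5 below 0 and 3 above, where 48% of all genes were below and 52% above. The sum over the 10 genes was 75.8 FPKM in the NFX1 library and 78.6 FPKM in the vector library. With the longest transcripts, the counting interval lay wholly below 1 for 3 of the 8 measured genes and wholly above 1 for 1, where it lay below 1 for 24.3% and above 1 for 33.7% of all genes. With median lengths it lay below 1 for 1 of the 8 (KDM5B) and above 1 for 1 (KDM4B), where it lay below 1 for 11.6% and above 1 for 25.6% of all genes. In the authors' deposited table none of the 10 was marked significant, with p from 0.189 for TET1 to 0.925 for TET3 and q = 0.999 for each. Those p-values rest on 1 library per group.

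Base composition moved with these differences. Across the 10 genes the log2 of the plain ratio and the median GC content of the gene's transcripts had a Spearman correlation of 0.96 and a Pearson correlation of 0.96, given as a description of 10 genes measured in the same 2 libraries. TET1 (41.0% GC), TET2 (43.0%), KDM3A (43.2%), KDM5B (44.7%) and KDM4C (45%) had the lowest GC content and the 5 lowest ratios. TET3 (55.0%), KDM6B (60.7%) and KDM4B (60.8%) had the highest GC content and, as deposited, the 3 ratios above 1, though the changes of all 3 lay below 0 with libraries scaled to the same total FPKM. KDM3B (47.4%) and KDM4A (49.5%) stood between them on both measures. The wobble position of codons gave a like order, with G or C there in 39.4% of codons in TET1, 41.2% in TET2, 41.3% in KDM3A, 47.9% in KDM5B, 52.5% in KDM3B, 71.0% in TET3 and 68.8% in KDM6B, next to the 84.0% of KDM4B. The Spearman correlation of that share with the log2 ratio was 0.95 over the 10 genes. Over 10160 measured genes with a coding sequence, its correlation with the change of FPKM + 1 was 0.56. The values for the 10 genes use plain ratios and include TET1 and TET2, which lie under 1 FPKM.

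**Figure D2:**
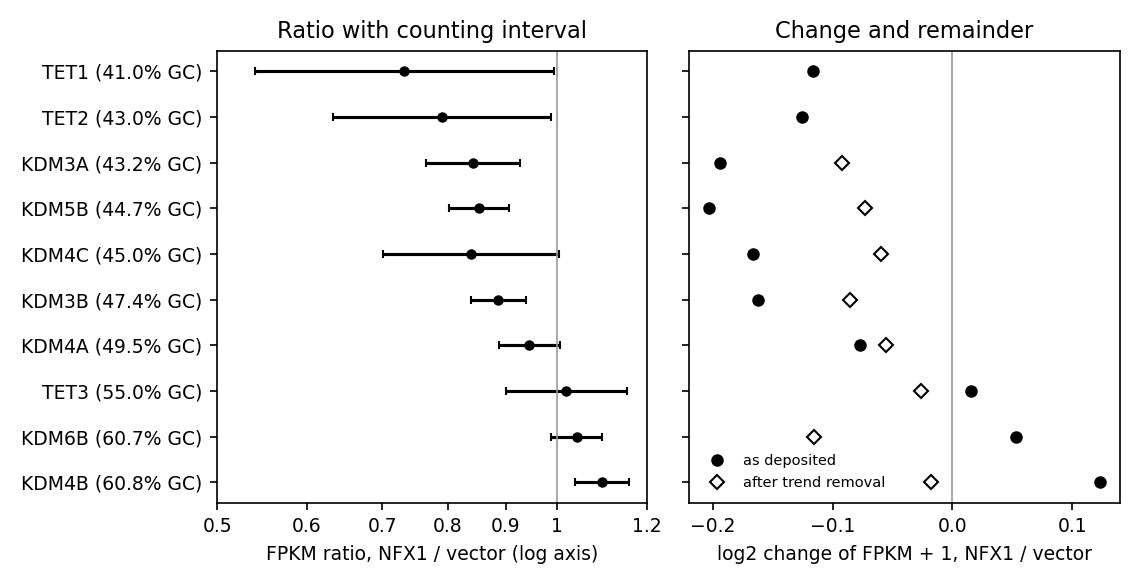
Left, FPKM ratio of the NFX1 over the vector library (log axis) with exact 95% counting intervals from the longest transcript, for the 10 genes ordered from the lowest transcript GC content at the top to the highest at the bottom. Right, log2 change of FPKM + 1 as deposited (filled) and after subtraction of the trend over all genes (open, 8 measured genes); the 3 changes above 0 as deposited, those of TET3, KDM6B and KDM4B, are below 0 after it and also with libraries scaled to the same total FPKM.

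Across all 10983 measured genes with an annotated transcript, which share the same 2 libraries, the Spearman correlation of transcript GC content with the change was 0.62. When these genes were split into 5 equal groups by GC content, the group that holds KDM3A, KDM3B, KDM4C and KDM5B (median 45.1%) had a median change of -0.10, and the group of highest GC content (median 62.5%), which holds KDM4B and KDM6B, had 0.20. A trend on GC content, transcript length and expression level, fitted over all genes, was therefore subtracted as an alternative. The trend alone was -0.10 for KDM3A, -0.13 for KDM5B, 0.14 for KDM4B and 0.17 for KDM6B. After subtraction the 8 changes lay between -0.12 for KDM6B and -0.02 for KDM4B, all 8 below 0, where 49.9% of all genes were below 0 and 50.1% above. Their median was -0.07, against 0.00 over all genes. No gene of the 8 was then 1.1-fold lower, where 14.8% of all genes were, or 1.1-fold higher, where 14.6% were. Of all genes, 18.5% had a lower remainder than KDM6B and 44.2% a lower one than KDM4B. With GC content and length taken from the longest transcript instead, an alternative chosen after the values were seen, KDM3B was lowest at -0.16 and TET3 was at 0.02. KDM3B was then past 1.1-fold lower, and 11.4% of all genes had a lower remainder. For named genes outside the 8, remainders are given only with median GC content and length. How much of each difference belongs to the base composition of the libraries was not tested.

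**Figure D3:**
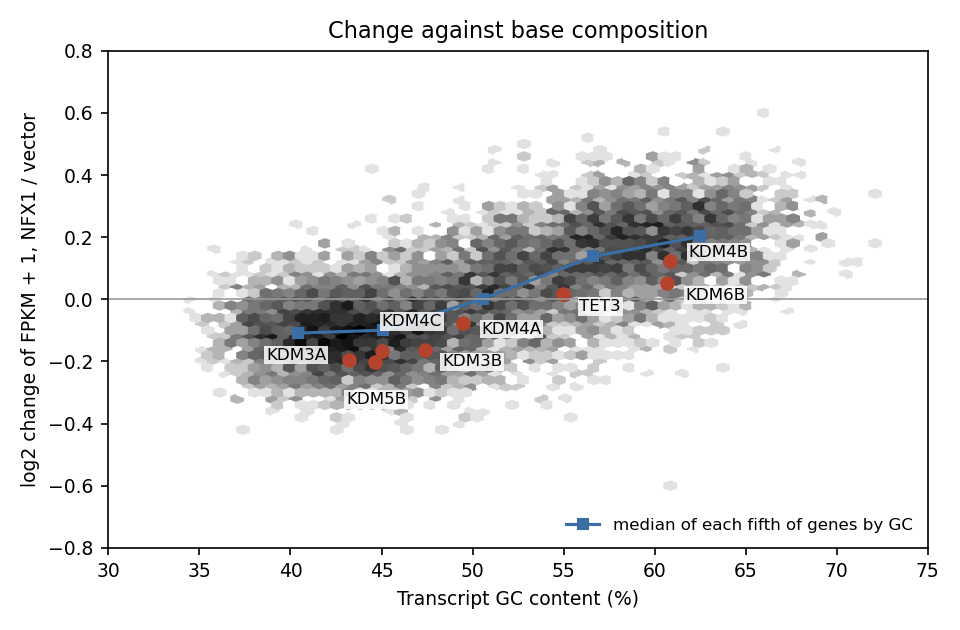
Log2 change of FPKM + 1, NFX1 over vector, against transcript GC content in percent for all genes with at least 1 FPKM in a library (grey, darker where genes are denser on a log scale; genes beyond the axis limits are not drawn), with the 8 measured demethylase genes (red) and the median of each of 5 equal groups of genes by GC content (blue). KDM3A, KDM3B, KDM4C and KDM5B lie between 43.2 and 47.4% GC with changes of -0.16 to -0.20, and KDM4B and KDM6B lie in the group of highest GC content.

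Relatives of these enzymes spread to both sides of 0 as deposited. Of 23 other listed proteins with a JmjC domain, 22 had a row of their own and 18 reached 1 FPKM. Their median change was 0.00, with 9 above 0 and 9 below, where 52% and 48% of all genes were. With libraries scaled to the same total FPKM 3 lay above 0 and 15 below, where 32.1% and 67.9% of all genes did. JMJD4, a lysyl hydroxylase of a translation termination factor, was 1.2-fold higher, at 29.97 FPKM in the NFX1 library against 23.4 FPKM in the vector library. JARID2, an inactive family member that works with Polycomb complex 2, was 1.2-fold lower, at 4.47 and 5.68 FPKM in the NFX1 and vector libraries. The other gene past that limit was KDM5A, an H3K4 demethylase like KDM5B, at 3.20 FPKM in the NFX1 library and 4.08 FPKM in the vector library. Of the 18, 1 was thus 1.2-fold higher and 2 were 1.2-fold lower, where 11.5% and 4.95% of all genes were. After subtraction of the trend these 3 had changes of 0.17, -0.26 and -0.16, and no gene of the 18 was then 1.2-fold higher or lower, where 3.31% and 3.63% of all genes were. Chosen after their values were seen, KDM5C, another H3K4 demethylase, had 33.1 and 30.8 FPKM, and KDM6A, the X-linked H3K27 demethylase, 2.55 and 3.11 FPKM in the NFX1 and vector libraries. After subtraction of the trend KDM5C was at -0.06 and KDM6A at -0.08.

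Demethylases of the other chemical class use a flavin cofactor. KDM1A had 32.2 FPKM in the NFX1 library and 31.9 FPKM in the vector library. The median change over the 7 flavin-dependent enzymes and CoREST partners was -0.05. Of the 7, 3 lay above 0 as deposited, where 52% of all genes did, and 1 with the same total FPKM, where 32.1% did. The largest changes of that list were in the scaffold genes RCOR1 (-0.21), RCOR3 (-0.18) and RCOR2 (-0.13). After subtraction of the trend RCOR2 stood at -0.31, where the trend alone was 0.18, and KDM1B at 0.25. With the median transcript length RCOR2 rested on 42 estimated fragments in each library. The RCOR2 ratio had intervals of 0.558 to 1.38 and 0.681 to 1.11 with the median and the longest transcript, which both held 1. KDM1A, the best-known enzyme of this class, and KDM1B were picked with their values in view.

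Methyltransferases act against the demethylases. The H3K9 enzymes had changes above 0 in 5 of 5 measured genes as deposited, where 52% of all genes lay above 0, with a median of 0.10. With both libraries scaled to the same total FPKM 1 of 5 lay above 0, where 32.1% of all genes did. After subtraction of the trend 3 of 5 lay above 0, where 50.1% of all genes did. The median of these 5 lay 0.09 above that of all genes as deposited and 0.08 above it at the same total FPKM. SUV39H1, which trimethylates H3K9 in heterochromatin, was the only gene of the 5 past 1.2-fold, where 11.5% of all genes were 1.2-fold higher. It had 14.1 FPKM in the NFX1 library and 10.7 FPKM in the vector library, a change of 0.37 that was 0.25 after subtraction of the trend. EHMT2 had a change of 0.13 and SETDB1 of 0.10, which became -0.02 and 0.16 after subtraction of the trend. The SETDB1 ratio had intervals of 0.836 to 1.40 and 0.981 to 1.19 with the median and the longest transcript, which both held 1. The 5 H3K36 enzymes lay below 0 as deposited, where 48% of all genes did, with a median of -0.17, led by NSD1 (3.83 FPKM in the NFX1 library and 4.66 FPKM in the vector library), ASH1L (-0.18) and NSD3 (-0.17). After subtraction of the trend 4 of the 5 stayed below 0, where 49.9% of all genes did, with a median of -0.07. H3K4 methyltransferases and their core subunits had a median of -0.03 over 9 genes, with RBBP5 at -0.24, SETD1B at 0.23 and KMT2A at -0.20. H3K27 methyltransferases had a median of -0.05 over 4 genes, with EED at -0.25, SUZ12 at -0.14 and EZH2 at 0.12 as deposited. With the same total FPKM all 4 lay below 0, where 67.9% of all genes did. Of the H3K36, H3K4 and H3K27 lists, no gene was past 1.2-fold as deposited, where 11.5% of all genes were 1.2-fold higher and 4.95% lower.

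On the DNA side, the 4 genes of DNA methylation and its maintenance had a median change of 0.04. As deposited 3 of them lay above 0, where 52% of all genes did. With libraries scaled to the same total FPKM none did, where 32.1% of all genes lay above 0. DNMT3A, a de novo methyltransferase, had 7.63 FPKM in the NFX1 library and 8.79 FPKM in the vector library, a change of -0.18 that was -0.29 after subtraction of the trend. That trend used the median GC content of its transcripts, 57.0%, while its longest transcript has 53.7%. UHRF1 (0.09) and DNMT1 (0.06), which maintain methylation through replication, were at -0.04 and -0.02 after it. Partners of the TET proteins and base excision genes had a median of -0.03 over 9 genes. NEIL2, a DNA glycosylase, had 1.74 and 1.38 FPKM in the NFX1 and vector libraries, while OGT, the glycosyltransferase that binds TET proteins, had 10.8 and 12.6 FPKM and SMUG1 31.6 and 35.7 FPKM. As FPKM + 1, no gene of either list was past 1.2-fold as deposited, where 11.5% of all genes were 1.2-fold higher and 4.95% lower. The plain ratio of NEIL2 was 1.27. After subtraction of the trend 1 gene of each list, DNMT3A and SMUG1 (-0.28), was 1.2-fold lower, where 3.63% of all genes were.

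Enzymes that make or use 2-oxoglutarate, succinate and fumarate had a median change of 0.09 over 17 genes, with 11 above 0 as deposited, 4 with libraries scaled to the same total FPKM and 13 after subtraction of the trend. Of all genes, 52% lay above 0 as deposited, 32.1% at the same total FPKM and 50.1% after subtraction of the trend. IDH3G, a subunit of isocitrate dehydrogenase, had 71.5 FPKM in the NFX1 library and 60.6 FPKM in the vector library, a change of 0.23 that was 0.03 after subtraction of the trend. SDHD, a membrane anchor of succinate dehydrogenase, had 45.5 and 54.0 FPKM, a change of -0.24 that kept its size after it. D2HGDH, which breaks down 2-hydroxyglutarate, an inhibitor of these dioxygenases, had 5.63 FPKM in the NFX1 library and 4.74 FPKM in the vector library. None of the 17 was past 1.2-fold as deposited, where 11.5% of all genes were 1.2-fold higher and 4.95% lower. Of the ALKBH family and FTO, related dioxygenases outside the TET family, 9 genes were measured with a median of 0.07. As deposited 5 of them lay above 0, and 4 with libraries scaled to the same total FPKM. ALKBH7 (73.7 FPKM in the NFX1 library and 59.4 FPKM in the vector library) and ALKBH2 (30.7 and 25.4 FPKM) were 1.2-fold higher as deposited, where 11.5% of all genes were. After subtraction of the trend their changes were 0.08 and 0.19, and that of ALKBH6 was 0.04, against 0.23 as deposited.

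**Figure D4:**
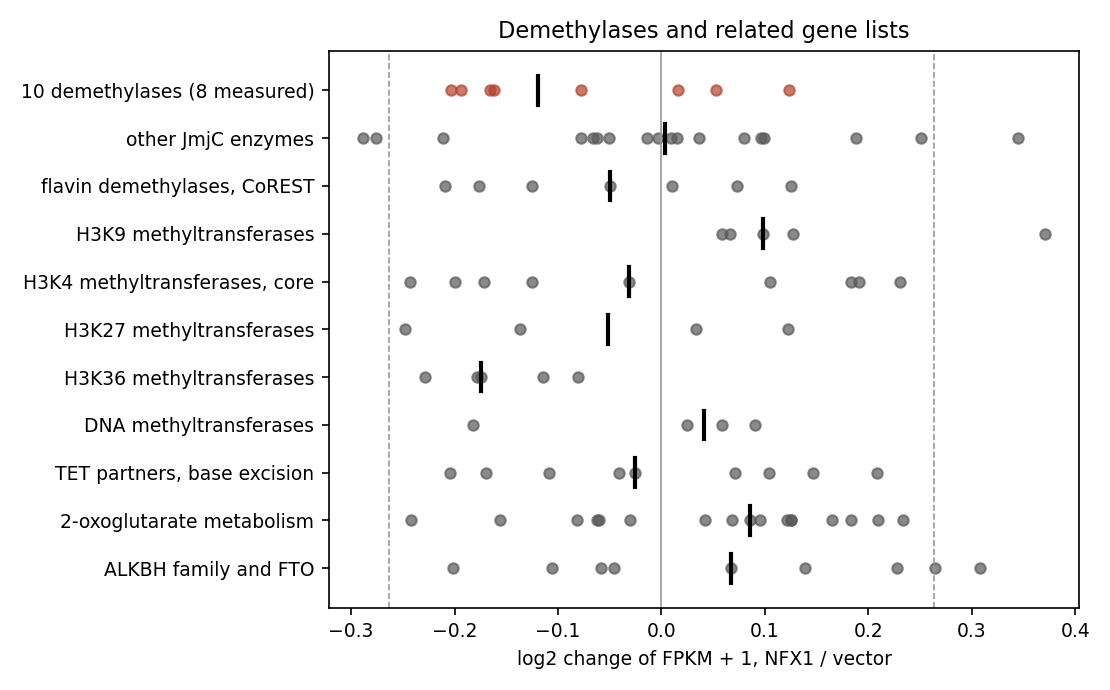
Log2 change of FPKM + 1, NFX1 over vector, as deposited, for the 8 measured demethylase genes (red, top line) and the measured genes of each related list (grey); the black bar is the median of a line and the dashed lines mark 1.2-fold. The 8 demethylase genes stay inside the dashed lines with a median of -0.12.

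The genes of 2 hypoxia-inducible factors that can drive KDM3A and KDM4B both had lower RNA values in the NFX1 library, as did 48% of all genes. Protein was not measured here, and a link of these values to KDM3A or KDM4B was not tested. HIF1A had 13.2 FPKM in the NFX1 library and 15.3 FPKM in the vector library, a change of -0.20, or -0.11 after subtraction of the trend. Its ratio of 0.861 had an interval of 0.732 to 1.015, which held 1, and of 0.803 to 0.925 with the longest transcript. EPAS1, which encodes HIF-2 alpha, had 140 and 153 FPKM in the NFX1 and vector libraries, a change of -0.13 that was -0.31 after subtraction of the trend. As deposited 22.9% of all genes had a lower change than EPAS1. The trend used the median GC content of its transcripts, 57.2%, while its longest transcript has 52.6%, and no remainder with the longest is given here. The EPAS1 ratio of 0.915 had an interval of 0.867 to 0.966. KDM3A and KDM4B, shown here because both are known targets and their ratios lay on opposite sides of 1 as deposited, carry the core letters of the hypoxia response element just before their starts. The 250 bases upstream of the first annotated start are given below (RefSeq, GRCh38.p14, plus strand, chr2:86441121-86441370 for KDM3A and chr19:4968863-4969112 for KDM4B), with ACGTG and GCGTG on either strand in capitals.
KDM3A: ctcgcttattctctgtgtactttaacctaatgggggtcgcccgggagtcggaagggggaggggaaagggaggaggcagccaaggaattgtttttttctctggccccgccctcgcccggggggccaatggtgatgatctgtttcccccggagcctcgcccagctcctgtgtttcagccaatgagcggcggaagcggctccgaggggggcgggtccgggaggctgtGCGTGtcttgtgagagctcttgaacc
KDM4B: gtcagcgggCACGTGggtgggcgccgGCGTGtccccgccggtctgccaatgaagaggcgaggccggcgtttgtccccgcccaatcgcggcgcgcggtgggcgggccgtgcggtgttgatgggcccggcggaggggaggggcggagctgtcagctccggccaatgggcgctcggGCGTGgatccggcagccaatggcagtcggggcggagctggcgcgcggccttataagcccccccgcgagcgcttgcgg
KDM3A held GCGTG at 1 place. KDM4B held it at 2, and had 1 CACGTG palindrome, which reads as ACGTG on both strands. Over the 10 genes, ACGTG was found in 4 windows, GCGTG in 7 and either in 8, while of 27305 windows of the same length 18.6% held ACGTG, 31.9% GCGTG and 43.1% either. The GC content was 62.4% in the KDM3A window and 75.6% in the KDM4B window, and over the 10 genes it ran between 45.6% for TET2 and 84.0% for TET3, against a median of 57.6% over all windows. Both motifs contain CG. A match describes letters and is no measure of binding.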

How the data were processed

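Groups came from the genotype labels. The submitters' processing notes name TopHat2 2.1.0, Cufflinks 2.2.1 and hg19, while strandedness, annotation, scaling and settings are not given in the sources used here. For each library FPKM was deposited by the authors. Per the file headers, the authors' table also has a score (the test statistic), a log2 fold change, p-value and q-value. From 28658 rows, those with no symbol (1651) or more than 1 symbol (492) were left out. A gene was measured where FPKM reached 1 in either library, and changes used a pseudocount of 1. The members and lists were chosen with earlier results of these data known. Named beyond the members were the 3 largest changes of each list, NFX1, HIF1A, EPAS1 and rows at a member's locus, apart from markers and genes noted as exceptions.

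Fragments were estimated from whole-fragment steps (44.7% of 1252 low rows lay within 0.02 in log2 of a ratio of up to 4 whole fragments; shifted steps gave a median of 6.83%), olfactory receptor genes and GENCODE 29 transcript lengths. Exact intervals (Clopper-Pearson for ratios, Poisson for levels) follow from them. The trend, cubic splines with 4 knots on genes within 2-fold, covered 98.2% of measured genes and took 40.4% of their variance. The intervals, given known fragment totals, and the removal of a linear GC trend were tested on simulated data; the estimate of the totals was not. Software was Python 3.11.15 with scipy 1.17.1, pandas 2.3.3, numpy 2.4.6 and matplotlib 3.10.9. Alternatives covered pseudocount, filter, scaling, rows, trend, fold limit and transcript length.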

Additional observations from a re-analysis of the deposited data

How the results depend on the processing

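The median change over the demethylase genes was -0.12. It was -0.13 and -0.07 with pseudocounts of 0.1 and 5, -0.08 with FPKM of at least 5, -0.07 with the trend removed and -0.08 with the trend from longest transcripts. Every scaling tried lowers every gene, so its lower median is no sign of stability. KDM4B, KDM6B and TET3 changed sign with libraries scaled to the same total FPKM and with the trend removed, and KDM6B and TET3 also with the same upper quartile. KDM4B then had -0.005 (same total), -0.02 (trend) and -0.03 (trend, longest transcript). Of 87 recomputed changes, the other 84 stayed within the gene's counting interval with the median transcript length. That count is no measure of stability. It includes filters and row choices that cannot alter a gene's own change, the only recomputed value of TET1 and TET2 among them. The intervals are also wide, so the sign changes of KDM6B and TET3 fall within them. Scaling to the same total moved the median of all genes to -0.10 and the same upper quartile moved it to -0.05, and the demethylase median lay 0.13 below that of all genes in both. Past 1.2-fold lower, 0 of 8 demethylase genes became 1 with the same upper quartile, 3 with the same total and 4 at a limit of 1.1. Of all 11182 genes, 554 became 1215, 2054 and 2319 in these same settings. Counting intervals without 1 were found for 3 of the 10 genes with median transcripts (2 below 1 and 1 above) and for 6 with longest (5 below and 1 above). The 10 include TET1 and TET2, which lie under 1 FPKM. Of the 8 measured genes, 1 lay below and 1 above with median transcripts, where 11.6% and 25.6% of all measured genes did. With longest transcripts 3 of the 8 lay below and 1 above, where 24.3% and 33.7% of all measured genes did.

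Over all genes, 1290 were 1.2-fold higher as deposited. That became 720 with a pseudocount of 5, 612 with the same upper quartile, 318 with the same total, 364 with the trend removed, 380 with the trend from longest transcripts, and 3282, 47 and 12 at limits of 1.1, 1.5 and 2. The 554 that were 1.2-fold lower became 1011 and 112 with pseudocounts of 0.1 and 5, 284 with FPKM of at least 5, 1215 with the same upper quartile, 2054 with the same total, 399 with the trend removed, and 2319, 24 and 4 at limits of 1.1, 1.5 and 2. No paired analysis was possible because each group has 1 library, and no library could be left out. The cause of these shifts was not tested. With median transcript lengths KDM3A, KDM4C and TET1 each rest on under 100 estimated fragments per library.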
